A study of Mus musculus with 60 samples.

Results

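The maxilla of the mouse embryo at embryonic day E10.5 was compared along its proximal to distal axis. The 3 arrays titled D_Maxilla were set against the 3 titled P_Maxilla at that age, which makes 6 of the 60 arrays in the study, and all 18193 named genes were tested, each by its probe set of highest mean signal over the 60 arrays. The study, from the FaceBase consortium, profiled distal and proximal pieces of mandible and maxilla at several ages. Its stated purpose was to join expression data with lineage and imaging data on how the jaws form. All 6 arrays carried RNA of C57Bl/6 embryos, with no transgene, allele or treatment named in the labels, and all belong to the series of arrays titled batch 4. Total RNA was extracted on columns, 3 µg of it was copied into labelled cRNA, and each sample was hybridised to 1 Affymetrix mouse array. Neither the origin of the 3 arrays of a group (separate embryos, litters or pools) nor the place of the cut along the process is given in the labels. The p-values and SEs measure the spread between arrays of 1 group, pooled over the study's 20 groups, and that spread may be technical. Where the arrays compared lie wider apart than this pool, the printed SE understates their own spread. In bulk tissue, fewer cells of a type and less RNA per cell cannot be told apart.

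At this stage the maxillary process is a bud of mesenchyme, most of it derived from cranial neural crest, inside a jacket of surface ectoderm. It grows from the proximal part of the first pharyngeal arch towards the nasal processes, with which its distal tip fuses to form the upper lip and primary palate. Epithelial Fgf, Bmp, Wnt and Shh signals and retinoic acid pattern the mesenchyme through homeobox genes, and the maxillary branch of the trigeminal nerve, whose cell bodies lie in the ganglion at the base of the arch, enters from the proximal side.

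The tissue field of the labels reads distal or proximal bone, and 5 bone genes had a value. Ibsp, which codes for bone sialoprotein of mineralised matrix, read 6.04, 4.33 and 4.30 on the distal arrays and 3.38, 3.40 and 3.68 on the proximal arrays, in log2 signal. The proximal values and 2 of the 3 distal values lay below 4.78, the highest lower quartile of gene signals on any of the 60 arrays, which is used here as the mark of a low signal. Sp7, the osteoblast transcription factor, read 6.49 ± 0.08 distally and 6.45 ± 0.13 proximally (SD, n = 3). The Ibsp difference of 1.41 (SE 0.29) was called (limma adjusted p = 0.000202), but it rests on distal array 1, without which it was 0.83 between low signals, while Alpl, Sp7, Col1a1 and Dlx5 did not pass the test. With this marker of mineralised matrix low on 5 of the 6 arrays, the pieces are called distal and proximal maxilla below, after the sample titles, and not bone.

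limma called 3666 genes at an adjusted p below 0.05, which is 20.2% of those tested. Of these, 2193 (12.1%) were higher and 1473 (8.1%) lower in the distal piece. The calls lower distally were larger in size. Among calls of at least 2-fold, 98 genes (0.539%) were higher and 337 (1.85%) lower distally. The median difference over all genes was 0.03 on the log2 scale. The spread in this count was shared over the 20 groups of the whole study. With the spread estimated from the 6 arrays alone, 602 genes (3.31%) were higher and 812 (4.46%) lower, so the higher calls fell from 59.8% to 42.6% of all calls. A repeated quantile normalisation of the 6 arrays alone gave 39.1%. All 3 distal arrays lay above all 3 proximal arrays for 2973 genes (16.3%) and below them for 1997 (11%). Counts of called list members below stand beside the 12.1% higher and 8.1% lower of all genes. A count near those shares says little about its list.

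**Figure D1:**
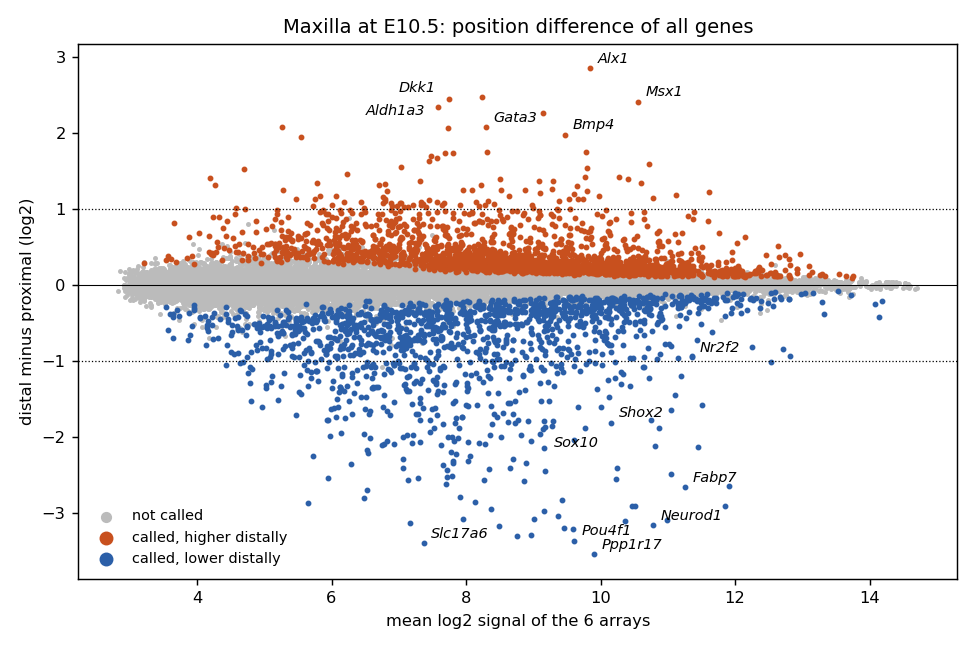
The difference between distal and proximal maxilla (log2, vertical axis) of each of the 18193 genes is plotted against its mean log2 signal over the 6 arrays (horizontal axis), with called genes in colour and dotted lines at a 2-fold difference. The lower calls reach 3.54 log2 units below 0 (Ppp1r17), while the higher calls reach 2.85 (Alx1).

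One distal array stood apart. Distal array 1 was the lowest of the 3 distal arrays in 70.6% of the 1473 genes called lower, and in all 15 of those named below. The median of these 1473 genes in array pairs of the same number was -0.67 for number 1, -0.54 for number 2 and -0.43 for number 3. Among the 2193 genes called higher the same medians were 0.29, 0.32 and 0.28. Without distal array 1, 3126 genes were called. Proximal array 1 was the lowest proximal array in all 15 named genes higher distally, and in 33.7% of all genes called higher. Over all genes the lowest correlation of an array with another of its own group ranged from 0.992 to 0.996 among the 6 arrays, and array medians ranged from 6.06 to 6.14.

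The distal piece was marked by homeobox genes, a Bmp ligand, a Wnt inhibitor and a retinoic acid synthesising enzyme. The 15 named genes higher distally were 3.24 to 7.23 times higher there. Each had a limma adjusted p of 9.79e-09 or less, and of 0.0761 or less with the 6 arrays alone. Arrays that do not overlap were required for naming a gene in either direction, so the lack of overlap is no separate result. Alx1, a homeobox gene of frontonasal mesenchyme, read 11.51, 11.24 and 11.08 on the distal arrays and 7.06, 8.85 and 9.36 on the proximal arrays. The distal arrays lay close together and the proximal arrays were spread over more than 2 log2 units, with array 1 the lowest, and the groups did not overlap. The difference was 2.85 (SE 0.26, limma adjusted p = 1.29e-12). The SD of its proximal arrays was 1.21, and with the 6 arrays alone the limma adjusted p was 0.012.

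Msx1, a homeobox gene that answers to Bmp signals in facial mesenchyme, read 11.70, 11.73 and 11.86 distally and 7.88, 9.85 and 10.31 proximally. Its relative Msx2 read 10.53, 10.21 and 10.10 distally and 6.71, 8.5 and 8.82 proximally. Both showed the same order of proximal arrays as Alx1 and no overlap, with differences of 2.41 (SE 0.23, limma adjusted p = 2.54e-12) for Msx1 and 2.27 (SE 0.22, limma adjusted p = 1.61e-11) for Msx2. With the 6 arrays alone the limma adjusted p was 0.029 for Msx1 and 0.025 for Msx2. Gata3, a zinc finger transcription factor needed for jaw growth, was more even. It read 9.53, 9.11 and 9.35 distally against 6.90, 7.31 and 7.56 proximally, a difference of 2.08 (SE 0.15, limma adjusted p = 3.57e-16). Tbx22, a T-box gene in which mutations cause cleft palate, read 8.84, 8.72 and 8.11 distally and 5.73, 7.06 and 7.66 proximally. Its difference was 1.74 (SE 0.22, limma adjusted p = 9.79e-09), with no overlap, and it was not called with the 6 arrays alone (limma adjusted p = 0.0502).

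The other named genes were of several kinds. Pmaip1, which codes for a BH3-only inducer of apoptosis, differed by 2.48, and Cxcl14, a chemokine gene, by 2.06, though not called with the 6 arrays alone (limma adjusted p = 0.0761). Ndnf, the gene of a secreted neurotrophic factor, differed by 1.75, Vegfd, a lymphatic and vascular growth factor gene, by 1.74 and Dpep1, a membrane dipeptidase gene, by 1.70. AW551984 differed by 1.75. Rerg, a Ras-like gene, averaged 4.22 proximally, below the mark of a low signal, so its difference of 2.08 is a lower bound.

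**Figure D2:**
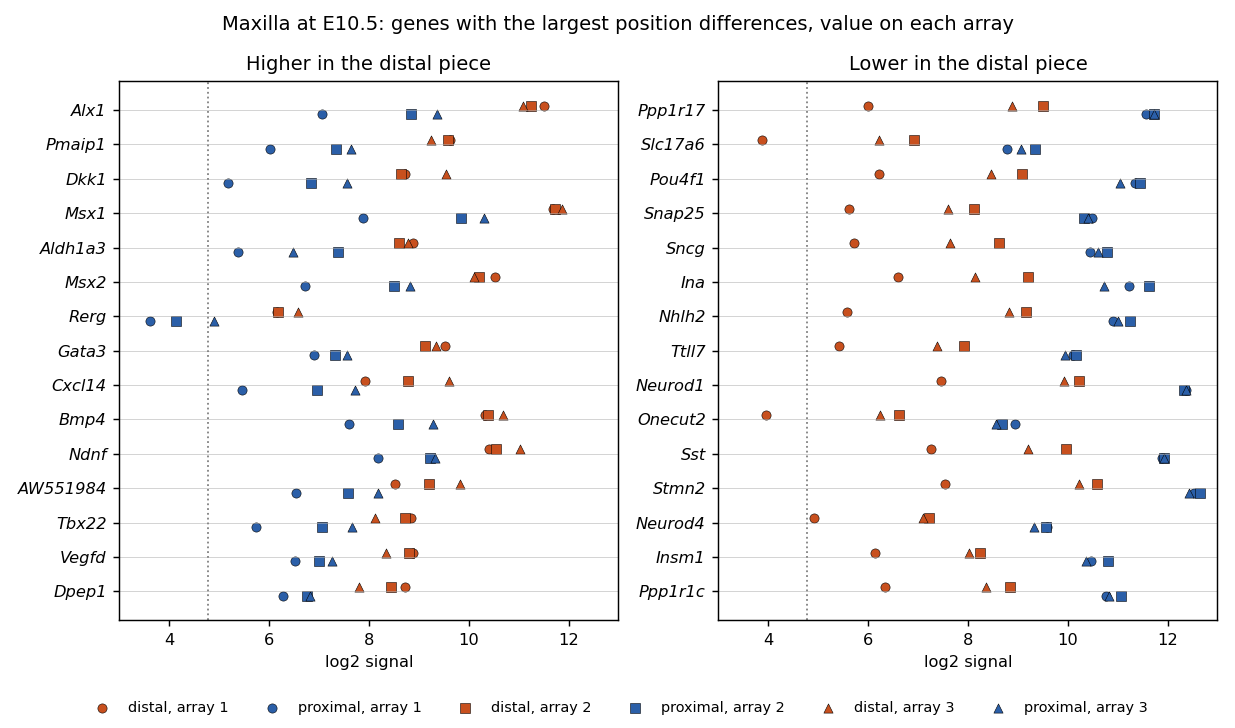
Log2 signal (horizontal axis) of the 15 named genes higher distally (left) and the 15 lower distally (right) on each array, with distal arrays in orange, proximal arrays in blue, a marker shape per replicate number and a dotted line at 4.78. On the left array 1 is the lowest proximal array in each gene. The proximal arrays are widely spread in genes such as Msx1 (SD 1.29) but less in Dpep1 (SD 0.29, against 0.48 distally). On the right the distal arrays are spread and array 1 is the lowest in each gene.

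Among Bmp ligands and their inhibitors, 4 of 9 genes were higher and 1 lower distally. Bmp4, the ligand that induces Msx genes in the facial primordia, read 10.32, 10.39 and 10.69 distally and 7.59, 8.59 and 9.29 proximally. All distal arrays lay above all proximal ones, as required for naming it, by 1.98 on average (SE 0.17, limma adjusted p = 5.41e-13). Bmp7, the gene of a related ligand, was 0.62 higher and Grem1, a Bmp antagonist gene, 0.98 higher. Bmper, the gene of a Bmp-binding modulator, was 0.67 higher with overlapping arrays. Bmp5 was 0.44 lower distally (limma adjusted p = 0.00567). Bmp2 and Chrd differed by 0.17 and -0.02 and were not called. Fst, the follistatin gene, differed by 0.67 and missed the call (limma adjusted p = 0.062), but passed with the replicate number as a block (limma adjusted p = 0.00058). The median of the list was 0.62. It was 0.14 without proximal array 1 and 0.17 without distal array 3, and Bmp5 was not called without distal array 2.

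All 8 Bmp target genes were higher distally, with a median of 0.74, and 6 remained called with the 6 arrays alone. Bambi, the gene of a decoy receptor induced by Bmp signals, differed by 1.17 (SE 0.09). Id1, which codes for an inhibitor of basic helix-loop-helix factors, read 12.11, 11.88 and 12.07 distally and 10.94, 11.21 and 11.39 proximally. Its groups did not overlap, and the difference was 0.84 (SE 0.06, limma adjusted p = 1.30e-15). The inhibitory Smad genes Smad6 and Smad7 differed by 0.93 and 0.72.

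Wnt ligands were higher distally in 8 of 10 cases and lower in none, with a list median of 0.88, and 7 stayed called with the 6 arrays alone. Wnt5a, a ligand that drives outgrowth of facial and limb buds, read 10.79, 11.04 and 11.51 distally and 9.19, 9.95 and 10.02 proximally. The groups did not overlap, and the difference was 1.39 (SE 0.15, limma adjusted p = 1.73e-10). Wnt9b, an ectodermal ligand needed for fusion of the upper lip, read 7.37, 7.26 and 7.48 distally against 5.82, 6.37 and 6.51 proximally, a difference of 1.14 (SE 0.13, limma adjusted p = 9.95e-10). Wnt4, Wnt6, Wnt5b, Wnt11 and Wnt7b differed by 0.95, 0.89, 0.87, 0.73 and 0.63. Wnt3, another ligand of the ectoderm, averaged 4.22 proximally, so its difference of 1.0 is a lower bound. Wnt10a and Wnt10b differed by 0.03 and -0.03 and were not called.

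Wnt target genes followed the same direction in 7 of 8 cases, with a median of 0.67. Lef1, a transcription factor of the canonical pathway and itself a target, read 10.49, 10.86 and 11.62 distally and 9.05, 9.74 and 9.90 proximally. Its arrays did not overlap and differed by 1.43 (SE 0.14, limma adjusted p = 1.70e-11). Axin2, a feedback inhibitor gene widely used as a readout of canonical Wnt signalling, differed by 0.78 (SE 0.08). Apcdd1, Nkd1 and Znrf3, which code for further feedback inhibitors, differed by 0.88, 0.85 and 0.45. Of the 8 targets, 4 stayed called with the 6 arrays alone.

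Secreted and membrane inhibitors of Wnt signals were higher in 8 of 9 cases, with a median of 0.77, or 0.50 without proximal array 1 and 0.51 without distal array 3. Dkk1, which blocks the Lrp coreceptors, read 8.72, 8.65 and 9.55 distally and 5.19, 6.84 and 7.55 proximally. The groups did not overlap, as required for naming it, and the difference was 2.45 (SE 0.25, limma adjusted p = 2.06e-11). Wif1, which binds Wnt ligands, differed by 1.03, Dkk2 (with overlapping arrays) and Dkk4 by 0.88 each, Dkk3 by 0.77, Frzb by 0.51 and Kremen1, a Dkk receptor gene, by 0.46. Sfrp1 was the 1 inhibitor lower distally. It read 10.14, 10.21 and 10.30 against 10.54, 10.58 and 10.46, with no overlap and a difference of -0.31 (SE 0.08, limma adjusted p = 0.00291). With the 6 arrays alone, 4 of these inhibitors were called higher and 1 lower.

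The 250 bases before the start of Dkk1 are shown because Dkk1 had the largest difference among the ligands and inhibitors listed here and because this stretch holds CTTTGA, the core to which Tcf and Lef factors bind, in both orientations. It lies on the minus strand at chr19:30549497-30549746 of GRCm38.p6, from RefSeq, and capitals mark CTTTGA, 117 bases before the start, and its reverse complement, 174 bases before it.

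Dkk1: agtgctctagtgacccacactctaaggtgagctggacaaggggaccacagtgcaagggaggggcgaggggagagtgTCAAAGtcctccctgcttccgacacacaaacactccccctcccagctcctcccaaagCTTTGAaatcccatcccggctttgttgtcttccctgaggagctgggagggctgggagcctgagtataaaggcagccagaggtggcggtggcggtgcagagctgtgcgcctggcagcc

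CTTTGA on either strand was found in this window in 15.8% of 27025 mouse genes. Of the 30 named genes, 20 had a promoter entry, 10 in each direction. Among the 10 higher distally, 4 held CTTTGA, namely Dkk1, AW551984, Tbx22 and Dpep1, and none of the 10 lower distally did. The stretch was among 14 patterns searched on both strands. Those of under 10 letters were CTTTGA and the longer CTTTGATC that contains it, the E-box forms CAGATG and CATATG given below, the POU site ATGCATAAT, the palindromes GGCGCC and ACATGT, and the Gata site AGATAA. The longer ones were a pair of palindromic homeodomain sites, a direct repeat of nuclear receptors that also contains CTTTGA, and the RE1 element in 3 lengths, of which the shorter lie within the longest or at its end. CTTTGATC, which 0.925% of all genes held, was in none of the 20. The patterns described were chosen after their matches were seen, and a match describes only the letters.

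Of 8 Fgf ligands, 3 were higher and 1 lower distally, beside 12.1% and 8.1% of all genes. The list median was 0.20, or 0.12 without proximal array 1 and 0.30 without distal array 1. Fgf8, the epithelial signal that sustains the first arch, read 9.001, 8.70 and 7.84 distally and 7.90, 7.19 and 7.64 proximally. The third distal array lay within the proximal range. The difference was 0.93 (SE 0.19, limma adjusted p = 0.00017), and it was not called with the 6 arrays alone (limma adjusted p = 0.11). Fgf10 and Fgf9 differed by 0.68 and 0.56 without overlap. Fgf18 went the other way. It read 6.095, 6.53 and 6.95 distally and 7.85, 7.71 and 7.62 proximally, a difference of -1.21 (SE 0.16, limma adjusted p = 5.11e-08). Fgf3, Fgf15, Fgf17 and Fgf20 differed by 0.00, 0.21, 0.19 and -0.14 and were not called.

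Genes induced by Fgf signals were higher in 6 of 9 cases and lower in none, with a median of 0.37. The Ets factor gene Etv4 differed by 0.95 (SE 0.11, limma adjusted p = 2.08e-09) and Etv5 by 0.61. Il17rd, Spred2 and Spry1, which code for inhibitors of the pathway, differed by 0.49, 0.37 and 0.32. Each of these 5 had all distal arrays above all proximal arrays.

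Shh, the hedgehog ligand of the facial epithelium, read 8.63, 8.86 and 10.31 distally and 7.75, 8.81 and 9.38 proximally. The groups overlapped, and arrays of the same number moved together. The difference of 0.62 (SE 0.23, limma adjusted p = 0.0431) was called with the replicate number as a block (limma adjusted p = 0.00017) but not with the 6 arrays alone (limma adjusted p = 0.55), without distal array 3, without proximal array 1 or after a repeated quantile normalisation. Gli1, the transcription factor gene most often used as a readout of hedgehog activity, was tighter. It read 8.12, 8.25 and 8.28 distally and 7.53, 7.57 and 7.62 proximally, a difference of 0.64 (SE 0.07, limma adjusted p = 3.97e-11). Foxf1, a forkhead target, and Ptch1, the receptor gene, differed by 0.95 and 0.31. Foxf2 and Hhip differed by 0.14 and 0.02 and were not called, so 4 of 6 members were higher.

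In the retinoic acid pathway, 9 of 13 genes were higher and 1 lower distally, with a median of 0.42. The median was 0.69 without distal array 1 and 0.63 without distal array 2, proximal array 2 or proximal array 3. It was 0.36 without proximal array 1 and 0.46 without distal array 3. Aldh1a3, an enzyme that makes retinoic acid in the nasal and ocular region, read 8.88, 8.61 and 8.79 distally and 5.38, 7.39 and 6.49 proximally. The groups did not overlap, as required for naming it, and differed by 2.34 (SE 0.25, limma adjusted p = 7.39e-11). Rarb, a receptor gene induced by retinoic acid, differed by 1.37 (SE 0.13) and Dhrs3, a retinaldehyde reductase gene also induced by it, by 1.05 (SE 0.08). Rdh10, which codes for the enzyme of the first step of synthesis, Stra6, the retinol uptake receptor gene, and Crabp1, a binding protein gene, differed by 0.60, 0.72 and 0.42.

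The enzymes that degrade retinoic acid differed in opposite directions. Cyp26a1 read 8.33, 8.96 and 8.44 distally and 10.26, 9.64 and 9.66 proximally, and was 1.28 lower distally with no overlap (SE 0.14, limma adjusted p = 1.89e-10). Cyp26b1 read 7.59, 7.75 and 9.01 distally and 6.41, 7.65 and 7.01 proximally, a difference of 1.10 (SE 0.19, limma adjusted p = 1.33e-05) with overlapping arrays. Aldh1a2 was not called (0.31). Aldh1a1 read 9.62 on distal array 3 and 9.07 on proximal array 2 and 4.99 or less on the other 4, and was not called either.

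Regulators of frontonasal and distal mesenchyme were higher in 13 of 17 cases and lower in 1, with a median of 0.69, and 11 stayed higher with the 6 arrays alone. Besides Alx1, Msx1 and Msx2, the tightest differences were those of Prrx2 and Lhx8. Prrx2, a paired-related homeobox gene of craniofacial mesenchyme, read 11.51, 11.35 and 11.22 distally against 10.07, 10.19 and 10.37 proximally, a difference of 1.15 (SE 0.07, limma adjusted p = 1.34e-17). Lhx8, a LIM homeobox gene needed for palate and tooth, differed by 0.96 and its partner Lhx6 by 1.13. Twist1, a regulator of cranial neural crest mesenchyme, read 11.69, 11.75 and 11.83 distally and 10.76, 10.89 and 10.87 proximally, a difference of 0.91 (SE 0.07, limma adjusted p = 1.42e-14). Prrx1 differed by 0.39, Snai2 by 0.69, Pax3 by 0.67, Six2 by 0.65, Alx4 by 0.42 and Tfap2c by 1.21.

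Of the AP-2 genes on that list, Tfap2b was lower distally. It read 8.71, 9.07 and 9.15 against 9.85, 9.64 and 9.59, a difference of -0.71 with no overlap (SE 0.11, limma adjusted p = 9.11e-07). Tfap2a differed by -0.13, Pax7 by 0.36 and Pax9 by 0.22, and these 3 were not called.

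Regulators assigned to maxillary and proximal mesenchyme split. Of 18 measured, 7 were higher and 6 lower distally, and their median was -0.01, or 0.01 with arrays centred on their medians. With the 6 arrays alone 4 were higher and 2 lower. Those lower distally included Shox2, a short-stature homeobox gene of the proximal maxilla and palate, with 7.84, 9.90 and 10.02 distally and 11.09, 11.05 and 11.05 proximally. The proximal arrays were close together while distal array 1 stood about 2 units below the other distal arrays, and the difference was -1.81 (SE 0.23, limma adjusted p = 2.06e-08). The nuclear receptor genes Nr2f2 and Nr2f1 differed by -0.95 (SE 0.10) and -0.81 (SE 0.19). Meox2, a homeobox gene of the palate, differed by -0.90, Pou3f3, a POU gene of the maxillary arch, by -0.61, and Foxd1, a forkhead gene, by -0.87 with overlapping arrays.

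The members of that list that were higher distally included Irx3, an Iroquois homeobox gene, with 12.06, 12.26 and 12.35 distally and 10.46, 11.29 and 11.23 proximally. Its difference was 1.23 (SE 0.10, limma adjusted p = 4.23e-14). Irx5 differed by 1.13, Meis1, a TALE homeobox gene, by 1.32, Foxl2 by 0.76, Osr2 by 0.57 and Meis2 by 0.35. In the whole list 5 members had all distal arrays above all proximal arrays and 5 had them below. Some of the 7 members called higher thus had overlapping arrays. Dlx1, Dlx2, Barx1, Osr1 and Tshz1 differed by -0.34, -0.10, 0.08, -0.38 and 0.10 and were not called.

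Lower jaw regulators served as a check on the dissection. Hand2, which gives the mandible its identity, read 4.99 ± 0.33 distally and 4.94 ± 0.18 proximally (SD, n = 3), while the same probe set averaged 12.83 and 11.91 in distal and proximal mandible of that age, which belong to another batch. Hand1 differed by -0.08, and Edn1, the ligand that induces mandibular fate, by 0.06, and neither was called. Pitx1, Gsc and Dlx3 were higher distally by 1.09, 0.94 and 0.81, and Dlx6 differed by -0.89, with overlapping arrays for Gsc and Dlx6. Dlx5 and Dlx4 were not called (-0.39 and -0.22). In all, 3 of 9 were higher and 1 lower, with none lower without distal array 1 and 2 lower without distal array 2 or 3.

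Markers of surface epithelium moved with the distal piece. Of 17 such genes, 15 were higher distally and none lower, with a median of 0.94, and 14 stayed called with the 6 arrays alone. Their summed linear signal ranged from 9434 to 12619 on the distal and from 5138 to 6714 on the proximal arrays. Esrp1, an epithelial splicing regulator, read 9.40, 9.31 and 9.22 distally and 8.35, 8.12 and 8.67 proximally, a difference of 0.93 (SE 0.09, limma adjusted p = 5.65e-12). Epcam, the epithelial adhesion gene, differed by 0.83, Trp63, the regulator of stratified epithelium, by 1.01, Perp, one of its targets, by 1.0, and Grhl3, an ectodermal Grainyhead gene, by 1.04. Cdh3 and Krt5 differed by 0.25 and 0.32 and were not called. Epithelium is a known source of several of the ligands above, such as Wnt9b, Wnt3, Wnt4, Wnt6, Fgf8, Fgf9 and Shh, and the part of the epithelial signal in their differences was not tested.

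Genes of the trigeminal ganglion and of sensory neurons were the main group lower in the distal piece. Of 16 measured, 14 were lower and 1 higher distally, with a median of -2.60, and 13 stayed lower with the 6 arrays alone. Their summed signal was 3137, 14236 and 10745 on distal arrays 1 to 3 and 49580 to 51564 on the proximal arrays. The proximal arrays thus lay close together while the distal arrays differed widely, with array 1 the lowest. Without distal array 1 the list median was -2.00, and with any 1 of the 6 arrays left out 13 or 14 members were lower.

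Pou4f1, the POU factor that defines sensory neurons, read 6.21, 9.08 and 8.47 distally and 11.35, 11.46 and 11.06 proximally. The groups did not overlap, as required for naming it, and the difference was -3.37 (SE 0.30, limma adjusted p = 7.34e-13). The SD of its distal arrays was 1.51, and with the 6 arrays alone the limma adjusted p was 0.015. Isl1, its LIM homeobox partner in sensory neurons, read 9.77, 10.86 and 10.52 distally and 12.45, 12.49 and 12.61 proximally. It differed by -2.13 (SE 0.15, limma adjusted p = 1.09e-15). Snap25, a gene of synaptic vesicle release, differed by -3.30 and Elavl4, a neuronal RNA-binding protein gene, by -2.90. Ret, a receptor gene, was the 1 member higher distally (0.99, limma adjusted p = 0.0224), with overlapping arrays, and it was not called without distal array 1, 2 or proximal array 1. Neurog2 differed by 0.08 and was not called, and Neurog1, which starts sensory neurogenesis, differed by -0.39.

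Slc17a6, the vesicular glutamate transporter gene of sensory neurons, read 3.87, 6.91 and 6.23 distally and 8.78, 9.35 and 9.07 proximally, a difference of -3.40 (SE 0.31, limma adjusted p = 1.48e-12). Neurod1, a basic helix-loop-helix gene of neuronal differentiation, read 7.45, 10.23 and 9.92 distally and 12.37, 12.33 and 12.38 proximally. It differed by -3.16 (SE 0.37, limma adjusted p = 1.16e-09). The bases before both starts are shown because each holds an E-box, the site type of basic helix-loop-helix factors such as Neurod1 itself. Capitals mark CATATG and CAGATG. Neurod1 lies on the minus strand, at chr2:79456637-79456886, with CATATG 242 bases before the start. Slc17a6 lies on the plus strand, at chr7:51624387-51624636, with CAGATG 205 and CATATG 42 bases before the start. Both are from RefSeq on GRCm38.p6.

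Neurod1: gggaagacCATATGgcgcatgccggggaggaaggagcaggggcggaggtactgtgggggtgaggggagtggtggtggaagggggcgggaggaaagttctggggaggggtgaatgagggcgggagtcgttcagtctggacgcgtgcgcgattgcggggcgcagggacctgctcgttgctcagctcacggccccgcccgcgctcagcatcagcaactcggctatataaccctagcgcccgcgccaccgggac

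Slc17a6: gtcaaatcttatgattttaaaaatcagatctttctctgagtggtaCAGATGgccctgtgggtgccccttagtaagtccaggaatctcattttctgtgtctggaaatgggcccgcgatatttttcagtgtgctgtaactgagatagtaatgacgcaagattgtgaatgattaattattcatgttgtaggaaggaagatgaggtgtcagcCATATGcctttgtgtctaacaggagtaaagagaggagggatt

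CATATG was present in this window in 3.98% of all genes, in 2 of the 10 named genes lower distally with an entry and in 1 of the 10 higher distally (Vegfd). CAGATG on either strand was present in 16.3% of all genes, in 3 of the lower genes (Slc17a6, Sncg and Nhlh2) and in 1 of the higher ones (AW551984).

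The 15 named genes lower distally were 8.20 to 11.7 times lower there, and most are known from neurons. Their limma adjusted p-values were 2.69e-08 or less, and 0.0515 or less with the 6 arrays alone. Distal array 1 carried much of the size of these differences, and without it the genes were 4.18 to 5.84 times lower. Ppp1r17, the gene of a phosphatase inhibitor, had the largest difference with all arrays, -3.54 (SE 0.38), or -2.48 without distal array 1. It read 6.00, 9.51 and 8.88 distally and 11.57, 11.72 and 11.74 proximally. The neuronal cytoskeleton and synapse genes Sncg, Ina and Stmn2 differed by -3.29, -3.21 and -3.09, and Ttll7, a tubulin polyglutamylase gene, by -3.17. The transcription factor genes Nhlh2, Onecut2, Neurod4 and Insm1 differed by -3.20, -3.13, -3.08 and -3.08. Sst, the somatostatin gene, differed by -3.10 and Ppp1r1c, another phosphatase inhibitor gene, by -3.04.

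All 7 glial genes, which mark Schwann cells and their neural crest precursors, were lower distally, with a median of -1.39 or -1.20 without distal array 1, and all 7 remained called with the 6 arrays alone. Their summed signal ranged from 1504 to 3772 distally and from 9291 to 11658 proximally. Sox10, the transcription factor of neural crest and glia, read 7.87, 8.52 and 8.21 distally and 10.25, 9.999 and 10.02 proximally, a difference of -1.89 (SE 0.12, limma adjusted p = 1.34e-17). The distal arrays were closer together here than for the neuronal genes. Fabp7, a fatty acid binding protein gene of satellite glia, differed by -2.66 (SE 0.27), Ednrb, the endothelin receptor gene of neural crest derivatives, by -1.96, Cdh19 by -1.39 and Erbb3, the neuregulin receptor gene, by -1.13.

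Precursors of skeletal muscle followed at a lower level. Of 11 genes, 5 were lower and none higher, with a median of -0.74, and 1 was higher without distal array 1, distal array 2 or proximal array 2. The lower count was 4 without distal array 1 or proximal array 1, and 6 without distal array 3. Msc, a regulator of branchial arch muscle, read 6.21, 7.26 and 6.89 distally and 9.23, 8.62 and 8.68 proximally. It differed by -2.06 (SE 0.18, limma adjusted p = 3.01e-13). Actc1, the cardiac actin gene that embryonic skeletal muscle also uses, and Myog, the myogenic factor gene, differed by -2.05 and -1.34. Tcf21 averaged 4.56 distally, so its difference of -0.74 is a bound, and Tbx1 differed by -0.38 with overlapping arrays. Myod1, Myf5, Tnnc1 and Myl1 differed by -0.43, -0.44, -0.79 and -0.74 and were not called. Myf6 and Lhx2 were not called either, and 1 of them was higher distally by 0.51, the highest difference of the list.

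Placode regulators split, and the Eya genes among them went both ways. Among 10 genes, 3 were higher and 4 lower distally. Irx1, Eya2 and Irx2 differed by -1.25, -1.20 and -1.09, while Eya4 and Eya1 differed by 1.14 and 0.78. Irx1 read 6.50, 6.94 and 7.21 distally and 8.14, 8.03 and 8.23 proximally, and Eya4 read 9.90, 10.26 and 10.16 distally and 8.46, 9.13 and 9.31 proximally. Neither overlapped. Sox2, a gene of neural and placodal progenitors, differed by -0.69 (SE 0.16, limma adjusted p = 0.000702).

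**Figure D3:**
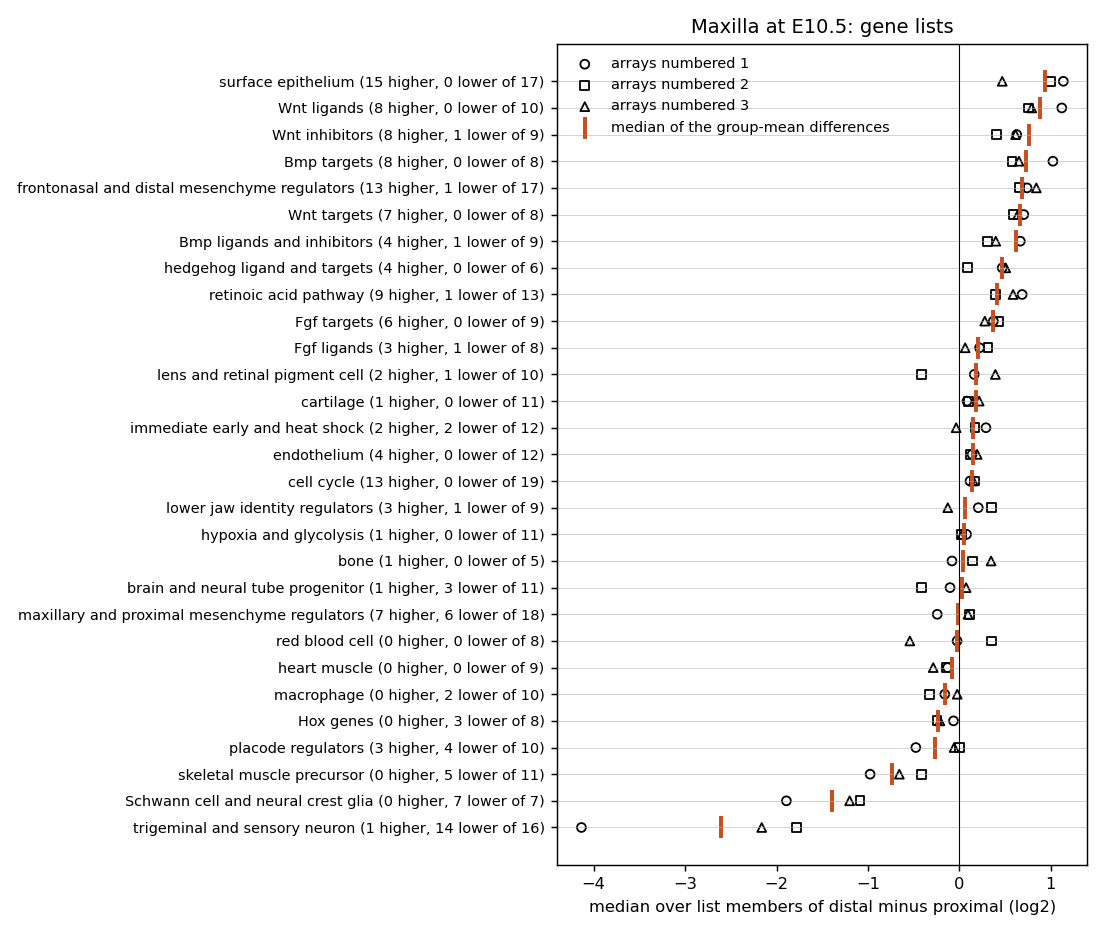
Median over the members of each gene list of the distal minus proximal difference (log2, horizontal axis), with an open marker for each pair of arrays of the same number, an orange bar for the median of the group-mean differences, and the counts of called members in the row names. Neurons and glia lie lowest, at -2.60 and -1.39, and surface epithelium, at 0.94, lies highest.

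Lists for cells that could come with a dissection gave fewer calls, to be set beside 12.1% higher and 8.1% lower over all genes. None of 8 red blood cell genes and none of 9 heart muscle genes were called, and 3 of the heart genes were at or under 4.78 in both pieces. By limma with no adjustment, 0 genes of either list had a p under 0.05. Without proximal array 3, however, 4 red cell genes were called higher distally, and without distal array 3, 1 was called lower. Macrophage genes were lower in 2 of 10 cases (Mrc1 and C1qa, which differed by -0.58 and -0.35), in 0 without distal array 1, in 4 without proximal array 1 and in 1 without proximal array 2 or 3. Endothelial genes were higher in 4 of 12 cases, by 0.22 to 0.34, and 1 was called without distal array 1, without proximal array 2 or without proximal array 3, but 6 without proximal array 1. Sox5 was the 1 of 11 cartilage genes called (0.45), and only when distal array 3 or proximal array 1 was the one left out did the call persist.

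Hox genes, which are not used by first arch mesenchyme, were lower distally in 3 of 8 cases, beside 8.1% of all genes. Hoxb2 read 6.14, 6.32 and 6.12 distally and 6.36, 7.96 and 6.82 proximally, and Hoxa2 and Hoxb1 read 6.45 and 5.29 on proximal array 2. That array was the highest for all 3 genes, and none was called without it. Without distal array 1 or 2, 1 was called. Hoxa2 and Hoxb1 averaged below 4.78 distally. Forebrain and eye genes were also uneven. Six3, a forebrain and eye homeobox gene, was higher distally by 0.99, and Emx2 and Hes5 differed by -0.87 and -0.69, both with overlapping arrays. Of the 11 brain genes 1 was higher and 3 were lower, beside 12.1% and 8.1% of all genes. With the 6 arrays alone 0 were higher and 1 was lower. With 1 array left out, 1 to 3 were higher and 1 to 4 lower. Pmel, a melanosome gene of retinal pigment cells, read 8.69 on distal array 3 and 7.81 on proximal array 2, against 6.27 to 6.68 on the other 4. The list of lens and retinal pigment genes had 2 of 10 higher and 1 lower, to be set beside the same shares. Its median of 0.19 turned to -0.11 without distal array 3, and 0 were higher without that array or proximal array 1, but 5 were without distal array 2 or proximal array 2 (medians 0.35 and 0.34).

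Cell cycle genes were slightly higher distally. Of 19, 13 were called higher and none lower, but the median was 0.14 and the largest difference 0.26 (Plk1, a mitotic kinase gene, limma adjusted p = 9.61e-05). Top2a and Cdk1 differed by 0.21 and 0.20. With the 6 arrays alone 2 were called, without proximal array 2 there were 7, and without distal array 1 or 3 there were 9. Of 12 immediate early and heat shock genes, which respond to handling, 2 were higher and 2 lower, beside 12.1% and 8.1% of all genes. Without distal array 3 or proximal array 3, 4 were higher, and without distal array 1 or proximal array 3, 1 was lower. Egr1 read 7.44, 7.42 and 7.39 distally and 8.32, 8.32 and 8.05 proximally, a difference of -0.81 (SE 0.14, limma adjusted p = 4.59e-06), and Hspb1 was 0.61 higher. Jun and Dusp1 differed by 0.31 and -0.18. Hk2 was the 1 of 11 hypoxia and glycolysis genes called (0.29), and it was not called without distal array 1, while 2 genes were called without distal array 3.

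Arrays of the same number shared deviations from their group means. Over all genes the correlation of these deviations was positive for each number, and between arrays of different numbers it ranged from -0.328 to 0.059. Deviations within a group cancel out, so the values for different numbers are not independent of those for the same number. Some single genes showed it and others did not. Xist, the gene of the inactive X chromosome, was highest on both arrays numbered 2, reaching 12.59 on the proximal one, and read 11.24 to 12.07 on the other 4, and the Y-linked gene Kdm5d read 7.76 and 7.41 on those numbered 2 and 8.30 to 8.75 on the others. Both Xist and Y-linked genes were above 4.78 on all 6 arrays. Klf1, an erythroid regulator, read 9.89 and 10.49 on the arrays numbered 3 against 8.29 to 8.88 on the others, and Slc4a1, the red cell anion exchanger gene, 11.75 and 12.34 against 10.34 to 10.87. Pmel and Hoxb1 did not follow the numbers. Alx1, the gene with the largest difference upward, ran in opposite order in the pieces. It fell from array 1 to 3 distally (11.51, 11.24 and 11.08) and rose proximally (7.06, 8.85 and 9.36).

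With the number as a block, 3635 genes were called, 2192 higher (12%) and 1443 lower (7.93%). Of the 329 list members and named genes, the block changed the call of 10. Cldn5, Erg and Ret were called only without it, and Fst, Six6, Dlx1, Dusp6, Egln3, Ccnb2 and Mki67 only with it.

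**Figure D4:**
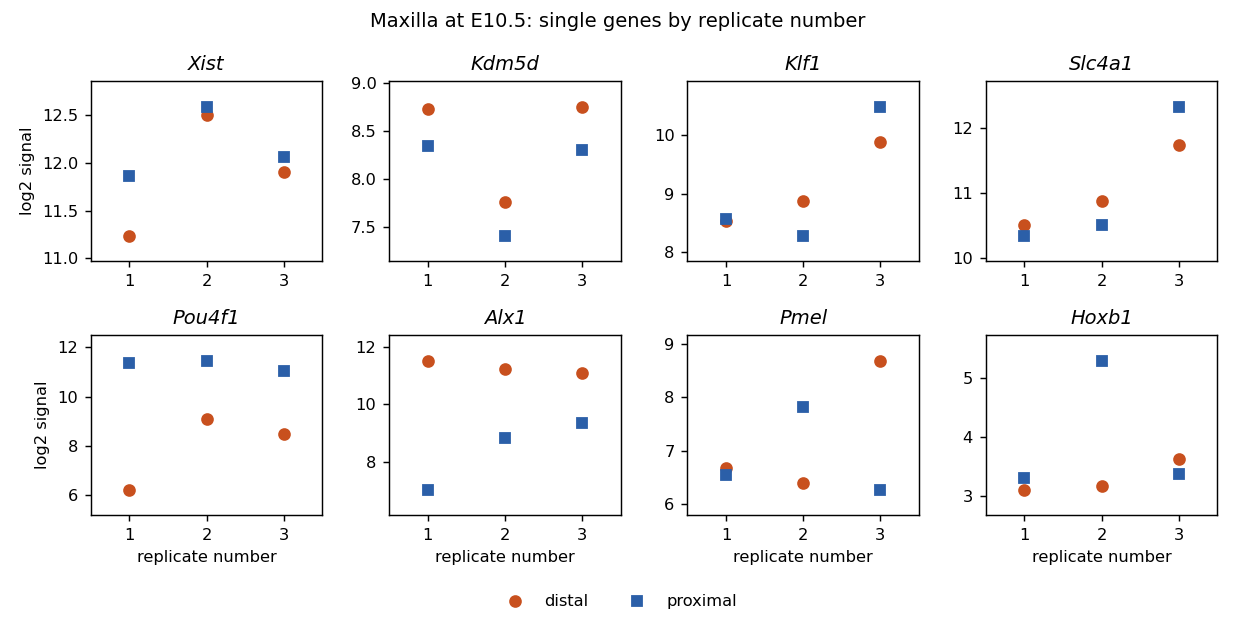
Log2 signal (vertical axis) of 8 genes by replicate number (horizontal axis), with distal arrays in orange and proximal arrays in blue, and a vertical scale of its own for each gene. Xist, Kdm5d, Klf1 and Slc4a1 move together in both pieces, whereas Pmel and Hoxb1 are high on proximal array 2 with no match on distal array 2. Alx1 falls with the number distally and rises with it proximally. Pou4f1 is highest on number 2 in both pieces, but lowest on number 1 distally and number 3 proximally.

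The same position difference was then set against that of the maxilla at E11.5, whose 6 arrays belong to batch 3. The difference at E10.5 less that at E11.5 was tested as an interaction, which removes a shift common to a batch but not one that acts on a single piece. limma called 1787 genes, 1274 upward (7%) and 513 downward (2.82%), around a median of -0.01. A repeated quantile normalisation of all arrays moved the upward share from 71.3% to 56.0% of calls. The named genes were picked by their difference at E10.5, which is part of this interaction. Among the 15 named genes higher distally, 3 were called in the interaction and 12 were not, which does not show that those were equal at the 2 ages. Msx2 differed by 2.27 at E10.5 and 0.67 at E11.5 (interaction 1.59, SE 0.32, limma adjusted p = 0.000375), Vegfd by 1.74 and 1.01, and Dpep1 by 1.70 and 0.80. Msx1, with 2.41 and 2.42, Bmp4, with 1.98 and 2.08, and Dkk1, with 2.45 and 2.61, were not called in it.

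The 15 named genes lower distally were picked by their difference at E10.5. Of these, 10 were called upward in the interaction, which here means a smaller mean difference at E10.5. The other 5 were not called, and Stmn2 differed by -3.09 at E10.5 and -2.48 at E11.5. Pou4f1 differed by -3.37 at E10.5 and -5.46 at E11.5 (interaction 2.09, SE 0.43, limma adjusted p = 0.000485), and Slc17a6 by -3.40 and -5.06. In array pairs numbered 1 to 3 at E10.5, Pou4f1 differed by -5.14, -2.37 and -2.58 and Slc17a6 by -4.91, -2.44 and -2.85. Their smaller mean difference at E10.5 thus rests on distal arrays 2 and 3, a split within the group that the pooled SE understates. In the neuron list 7 of 16 members were called upward, with list medians of -2.60 and -3.47 at the 2 ages. At E10.5 the list median was -4.135 in the pair numbered 1, -1.78 in that numbered 2 and -2.16 in that numbered 3. None of the 7 glial genes was called in the interaction (medians -1.39 and -1.13). Skeletal muscle precursor genes were called upward in 8 of 11 cases, with medians of -0.74 and -2.30. Myf5 differed by -0.44 and -3.27 and Myog by -1.34 and -2.80.

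Signalling and patterning genes gave calls in both directions. None of 10 Wnt ligands was called upward in the interaction and 1, Wnt3, was called downward (1.0 at E10.5 and 1.74 at E11.5). The E10.5 value is a lower bound, since proximal Wnt3 averaged below 4.78 there, so the size of its interaction is not known. Dkk4 differed by 0.88 at E10.5 and 3.43 at E11.5, an interaction of -2.55 (SE 0.27, limma adjusted p = 1.25e-09). Rarb differed by 1.37 and 0.12 and Cyp26a1 by -1.28 and -0.05, with interactions of 1.25 and -1.22. Ptch1 differed by 0.31 and -0.36 and Shh by 0.62 and -0.51, with interactions of 0.67 and 1.13. Foxd1 differed by -0.87 and -2.80 and Shox2 by -1.81 and -0.62. Pax3 differed by 0.67 and 1.82 and Tfap2b by -0.71 and 0.60. Each of these genes was called in the interaction by limma.

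The position difference was also set against that of the mandible at E10.5, again in batch 3. This comparison uses the same 6 maxilla arrays as the one by age, so the 2 are not independent. limma called 3756 genes, 2112 upward (11.6%) and 1644 downward (9.04%), around a median of 0.01. The named genes were picked by their maxilla difference, which is part of this interaction, so calls in its direction are favoured by the choice. All 15 named genes lower distally in the maxilla were called downward, and in the mandible their differences ran from -0.31 to 2.55. In 7 of them, Pou4f1 and Slc17a6 among them, both mandible pieces averaged below 4.78, so their mandible differences compare low signals and measure no change there. Isl1, with signals well above that mark, differed by -2.13 in the maxilla and 1.74 in the mandible. Nhlh2 differed by -3.20 in the maxilla, and its 2.55 in the mandible is a lower bound, since proximal mandible averaged 4.34. In the neuron list 14 of 16 members and in the glial list all 7 were called downward, with mandible medians of 0.14 and 0.03.

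Of the 15 genes higher distally, which were picked in the same way, 9 were called upward. Msx1 differed by 2.41 in the maxilla and 0.35 in the mandible (interaction 2.06, SE 0.32, limma adjusted p = 1.51e-06), and Aldh1a3 by 2.34 and -0.22, the latter between signals below 4.78. Alx1, Dkk1, Gata3, Ndnf, Rerg and AW551984 were not called, with mandible differences of 2.43, 1.87, 1.76, 2.26, 1.94 (a lower bound) and 1.47. Lhx6 differed by 1.13 and -1.25, Lhx8 by 0.96 and -0.54, Fgf8 by 0.93 and -1.76, Dkk4 by 0.88 and -1.89, Pitx1 by 1.09 and -1.39 and Dlx3 by 0.81 and -1.44. These 6 genes had opposite signs in the jaws, and limma called each in the interaction. The Fgf target list followed, with a maxilla median of 0.37, a mandible median of -0.43 and 8 of 9 members called upward. Bmp targets were called upward in 3 of 8 cases and downward in none, with medians of 0.74 and 0.59.

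**Figure D5:**
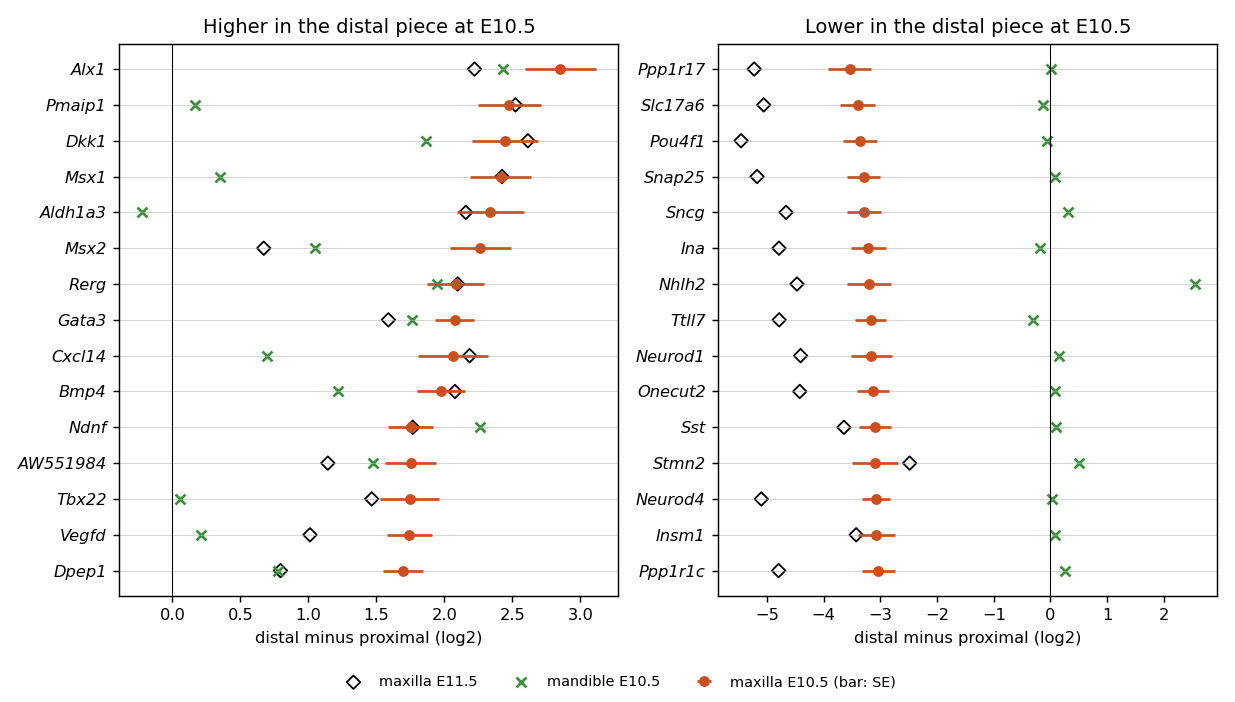
Distal minus proximal difference (log2, horizontal axis) of the 15 named genes higher (left) and the 15 lower distally (right) in the maxilla at E10.5 (filled circles, bars are SE), the maxilla at E11.5 (open diamonds) and the mandible at E10.5 (crosses). The SE uses the spread pooled over the study's 20 groups and not that of the 6 arrays. The genes on the right lie between -5.46 and -2.48 at E11.5 and between -0.31 and 2.55 in the mandible, where 7 of them had signals below 4.78 in both pieces.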

How the data were processed

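The deposited values are log2 signals per probe set that the authors made with RMA, per the submitters' processing notes. The version, and whether all 60 arrays were normalised together, are not given in the sources used here. Of 45101 probe sets, those with 1 gene symbol in the 2016 platform annotation were kept, and each of 18193 genes was represented by the probe set of highest mean. limma 3.58.1 (R 4.3.3) was fitted over 60 arrays in 20 groups, with Benjamini-Hochberg adjustment over all genes and calls at 0.05. On simulated data with known changes for this comparison of 18193 genes, it recovered 71.9% of genes changed by 0.5, 98.6% by 1 and 100% by 2 log2 units. False calls made up 5.18% of its calls, and the fit on 6 arrays recovered 57.9% at 0.5. The simulated noise was independent between arrays, with 1 spread per gene in every group. It thus does not cover the wider spread of single groups or the deviations shared by same-numbered arrays.

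The text names the 15 called genes of largest difference in each direction with a mean of at least 6, arrays that do not overlap and a symbol that is neither predicted nor sex-linked, 5 per direction in each interaction, and up to 5 called members of a list, or any member of the ligand and regional regulator lists. Genes named outside this rule were chosen after their values were seen. The members and lists were chosen with earlier results of these data known. Replicate numbers were taken from the sample titles. Deviations of same-numbered arrays correlated at 0.340, 0.170 and 0.265. The values printed come from the fit without this pairing, and a fit with the number as a block was run beside it. The number of arrays limits the precision.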

Additional observations from a re-analysis of the deposited data

Results flagged for a closer look

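Some genes had a distal minus proximal difference in the maxilla at E10.5 that differed, by limma's interaction test, from that at E11.5 or from that in the mandible. The ages and the jaws were in different batches, and the part of batch in these differences cannot be told apart from age or jaw. The values below are log2 differences.

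Among the 30 genes named by position, 13 differed between the ages and 24 between the jaws. These genes were picked by their maxilla difference at E10.5, which is part of both interactions, so the counts are not free of that choice. By age, Tac2, a tachykinin gene, differed by 0.34 at E10.5 and -3.27 at E11.5, an interaction of 3.61, with a signal below 4.78 at E10.5. Six6, an eye homeobox gene, differed by 0.88 and -2.54 (interaction 3.42), Hivep3 by -1.77 and -5.03 (3.26), Zic1, a zinc finger gene, by -0.72 and -3.84 (3.12) and Gpr50, an orphan receptor gene, by 0.93 and -2.16 (3.09). Fitted on only the compared arrays, the interactions of Six6 (limma adjusted p = 0.0505) and Zic1 (limma adjusted p = 0.0742) were not called. In the other direction, Hey2, a Notch target gene, had an interaction of -2.79 (-0.81 and 1.99), Chodl -2.63 (-0.10 and 2.53), Dkk4 -2.55 (0.88 and 3.43), Avpr1a, a vasopressin receptor gene, -2.14 (0.06 and 2.2) and Emx2, a forebrain homeobox gene, -1.94 (-0.87 and 1.07).

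Between jaws, the 5 with the highest interaction were heart muscle genes. Myl2 differed by -0.08 in the maxilla and -7.19 in the mandible (interaction 7.11), Myl7 by 0.08 and -5.07 (5.15), Tnnt2 by -0.38 and -4.95 (4.57), Myl4 by -0.51 and -4.61 (4.10) and Myh6 by 0.07 and -3.95 (4.02). They averaged 11.73, 11.21, 9.56, 9.91 and 8.11 in proximal mandible, and Myl2, Tnnt2 and Myh6 averaged below 4.78 in distal mandible, so their differences there are lower bounds in size. The 5 with the lowest were genes of neurons, apart from Rgcc, a cell cycle regulator gene. Nhlh2 had an interaction of -5.75 (-3.20 in the maxilla and 2.55, a lower bound, in the mandible), Rgcc -4.81 (-2.58 and 2.23), Dcx, a microtubule gene of young neurons, -4.41 (-2.97 and 1.45), Isl1 -3.87 (-2.13 and 1.74) and Nefm, a neurofilament gene, -3.74 (-2.64 and 1.10).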

How the results depend on the processing

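The position comparison called 3666 genes. It called 1414 with the 6 arrays alone, 1838 with the replicate number as a block on those 6, 1380 after quantile normalisation repeated on them, 435 at 2-fold or more and 2521 to 3505 with 1 array or number left out. With the replicate number as a block over 60 arrays it called 3635. Centring arrays on their medians gave 2897 higher and 1384 lower, 67.7% higher against 59.8%. The age comparison called 3234 with array weights (whose fit gave a convergence warning), 265 at 2-fold or more and 810 to 2080 with arrays left out, against 1787. The jaw comparison called 6257 with probe sets as units, 591 at 2-fold or more and 2457 to 3815 with arrays left out, against 3756. With arrays or numbers left out, Klf1 ranged from -0.42 to 0.68, Slc4a1 from -0.38 to 0.62, Neurog2 from -0.95 to 1.03, Pmel from -0.65 to 1.27, Aldh1a1 from -1.88 to 2.82, Hoxb1 from -1.16 to 0.026 and the lens and pigment list median from -0.19 to 0.52. The highest values of Klf1 and Slc4a1 came without proximal array 3, the lowest of Neurog2, Pmel, Aldh1a1 and that list without number 3, and the highest of Hoxb1 without number 2. Without distal array 3 the list median was -0.11. The causes were not tested. Of the 30 named genes, 27 stayed called with the 6 arrays alone (not Cxcl14, Tbx22 and Nhlh2) and 28 after quantile normalisation on them (not Cxcl14 and Tbx22). Signals near 4.78 give only bounds on a difference.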

Other observations

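Further gene families were chosen after their values were seen, and their counts stand beside 20.2% of all genes called, 12.1% higher and 8.1% lower. Of 12 T-box genes 4 were higher distally and 2 lower. Tbx2 and Tbx3, repressors expressed in outgrowing buds, differed by 1.35 and 0.95. Tbx18 differed by -0.82 with overlapping arrays, and was not called with the 6 arrays alone (limma adjusted p = 0.37). Among Gata genes, Gata2 joined Gata3 with a difference of 1.26. Of 4 Zic genes 2 were lower, with Zic2 at -1.65 and Zic5 at -0.80. Both had overlapping arrays, and neither was called with the 6 arrays alone (limma adjusted p = 0.090 and 0.21). Bdnf and Ntf5, neurotrophin genes, differed by 1.40 and 1.07, and Gdnf by -0.68. The Notch ligand genes Dll3 and Dll1 differed by -2.02 and -1.22.

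Of 13 Eph receptor genes 7 were higher distally and 1 lower, with Epha4 at 0.99 and Epha5 at -1.50. Of 20 semaphorin genes, which code for guidance signals, 4 were higher and 4 lower. Sema5a and Sema3a differed by 0.73 and 0.57, and Sema3g and Sema6d by -1.03 and -0.85. All 4 stathmin genes and 5 of 8 voltage-gated sodium channel genes were lower distally, among them Stmn3 (-2.91) and Scn9a (-2.69). Shares near that of all genes were found for 42 collagen genes, of which 26.2% were called (9 higher and 2 lower), and for 19 Sox genes, of which 15.8% were called (1 higher and 2 lower).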
